A study of Homo sapiens with 38 samples.

Results

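The enzymes that bring pyruvate into the mitochondrion and turn it through the citrate cycle were followed as 34 named genes, taken by symbol from a list whose rule uses no measured value, although the list was drawn up with earlier results of these data known. All 34 were found in the count tables of both CRISPR screens, which held 18029 genes for Hep3B and 18036 genes for SNU-398, and among the 58735 genes of the RNA-seq table. Hep3B and SNU-398 are human hepatocellular carcinoma (HCC) cell lines. In the screens, Cas9-expressing cells carried a genome-wide guide library (TKOv3), and guides were counted in 2 libraries for each of 8 groups per line: T0, harvested before treatment, T1, and cells grown for 14 days with Sorafenib, Regorafenib, Lenvatinib, Erastin, Abemaciclib or Palbociclib. T1 was taken as the vehicle group, since the methods name 8 groups and no other label is left for it. Sorafenib, Regorafenib and Lenvatinib inhibit tyrosine kinases, Erastin induces ferroptosis, and Abemaciclib and Palbociclib inhibit CDK4 and CDK6. The RNA-seq compared 3 Hep3B libraries labelled PSTK-KO, of genotype PSTK-/-, with 3 labelled control, of wild type genotype. PSTK is a kinase of selenocysteine synthesis, and its knockout was made in Cas9-expressing cells by a lentivirus with a pair of guides, followed by puromycin. The PSTK-KO cells were thus a selected population, for which no cloning step is described.

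Pyruvate made by glycolysis crosses the inner mitochondrial membrane through a carrier built of MPC1 and MPC2. The pyruvate dehydrogenase complex then converts it to acetyl-CoA, and this step is switched off when a kinase (PDK1 to PDK4) phosphorylates the complex and switched on again when a phosphatase (PDP1 or PDP2) removes the phosphate. The citrate cycle oxidizes acetyl-CoA stepwise from citrate to oxaloacetate. Pyruvate carboxylase, the malic enzymes, glutamate dehydrogenase and PEPCK add carbon to the cycle or draw it off, and the NADP-dependent isocitrate dehydrogenases supply reducing power for lipid and glutathione metabolism.

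The promoters of PDK4, PDK3 and PDP2 are shown because the RNA of these 3 regulators of the pyruvate dehydrogenase complex fell further in the PSTK-KO libraries than that of the other 4, and PDP2 also had the most calls in the screens. The 250 bases before the RefSeq transcription start are printed 5′ to 3′ on the strand of the gene (GRCh38.p14), at chr7:95596517-95596766 on the minus strand for PDK4, chrX:24465036-24465285 on the plus strand for PDK3 and chr16:66880265-66880514 on the plus strand for PDP2. Capitals mark matches, on either strand, to the CCAAT box (spelled CCAAT), the GC box (spelled GGGCGG), a forkhead motif (spelled GTAAACA), a nuclear receptor half-site (spelled AGGTCA), an E-box (spelled CACGTG) or the TATA box (spelled TATAAA).
PDK4: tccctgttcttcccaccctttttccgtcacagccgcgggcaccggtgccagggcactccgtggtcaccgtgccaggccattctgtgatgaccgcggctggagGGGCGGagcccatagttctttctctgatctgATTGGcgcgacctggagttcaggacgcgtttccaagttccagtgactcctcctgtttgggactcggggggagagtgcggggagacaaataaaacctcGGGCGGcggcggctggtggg
PDK3: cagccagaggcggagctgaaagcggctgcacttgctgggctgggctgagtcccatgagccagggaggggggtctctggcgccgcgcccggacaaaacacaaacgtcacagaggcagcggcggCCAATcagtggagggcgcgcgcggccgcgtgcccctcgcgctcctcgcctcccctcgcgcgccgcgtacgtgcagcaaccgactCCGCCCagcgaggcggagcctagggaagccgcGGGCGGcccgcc
PDP2: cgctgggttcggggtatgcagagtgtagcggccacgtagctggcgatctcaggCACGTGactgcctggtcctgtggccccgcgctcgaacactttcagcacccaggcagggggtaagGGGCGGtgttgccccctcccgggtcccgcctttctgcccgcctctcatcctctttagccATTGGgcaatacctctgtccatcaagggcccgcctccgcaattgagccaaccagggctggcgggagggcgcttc
Each of the 3 windows held a CCAAT box and a GC box, and that of PDP2 also held the E-box. In none of them did marked matches overlap. RefSeq promoters were found for 31 of the 34 genes. The CCAAT box was in 22 of these 31 and in 32.0% of all 35116 promoters, the GC box in 22 and in 42.6%, the half-site in 5 and in 12.1%, the E-box in 6 and in 6.34%, and the TATA box in 2 and in 10.7%. No promoter of the 31 held the forkhead motif, which 2.98% of all promoters held. These matches describe letters and were not tested as binding sites.

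Some facts of the libraries bear on all results. PSTK itself had 76, 84 and 64 counts in the control libraries and 63, 71 and 87 in the PSTK-KO libraries. Its log2 fold change was -0.06 (SE 0.18, adjusted p = 0.84 by edgeR), so its RNA, counted over the whole gene, does not check the labels. The RNA-seq libraries held 15404153 to 16851558 assigned counts. Of 18 hepatocyte markers, 15 had at most 11 counts in every library labelled Hep3B, AFP reached 3 counts and TTR had none. Most of these markers thus do not bear out the label of a liver cell line, and the identity of the cells was not tested. ALB had 24 to 37 counts in the controls and at most 1 in PSTK-KO. CPS1 (13202 to 15766 counts in controls, 6493 to 7476 in PSTK-KO) and HNF4A (383 to 449, then 237 to 285) were present. FGB, a fibrinogen chain, was scarce and called higher, with 0, 3 and 2 counts in the controls and 11, 10 and 11 in PSTK-KO (log2 fold change 2.55, SE 0.71, edgeR adjusted p = 0.0054), so that of the 4 markers tested 3 were called lower and 1 higher. Sums of markers are in CPM of the library total, without TMM scaling. The summed hepatocyte markers lay at 857 to 962 CPM in the controls and at 443 to 481 CPM in PSTK-KO. Most of this was CPS1 (mean 900.3 and 429 CPM after TMM scaling). The summed fibroblast markers, led by COL1A1, lay at 57.2 to 65.5 and 41.0 to 45.5 CPM. The summed endothelial markers lay at 13.7 to 14.3 and 9.02 to 11.9 CPM, and those of blood at 1.48 to 2.26 and 1.23 to 2.18 CPM, with PTPRC at 0. The part of these differences in the results below was not tested. In the screens, totals ran from 11198022 to 46376708 counts per library, and 38.7% to 52.8% of all Hep3B guides had no count after T0, against 22.5% to 40.9% in SNU-398. One library stood apart: SNU-398 Erastin replicate 2 correlated with its mate at r = 0.947, where all other mates reached at least 0.988, and its median correlation with Hep3B libraries, 0.931, equalled that with its own line.

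Most enzymes of pyruvate entry and the citrate cycle had less RNA in the PSTK-KO libraries. Of the 34 genes, all of which passed the filter on low counts, 20 were lower in the PSTK-KO libraries and 2, PDP1 and ME2, were higher at an adjusted p under 0.05 (edgeR quasi-likelihood test, 15370 genes tested). Over all genes tested, 17.2% were called lower and 15.6% higher. The median log2 fold change of the 34 genes was -0.17, beside 0.00 for all genes. In 22 of the 34 the PSTK-KO libraries all lay below the control libraries, as was the case for 22% of all genes, and in 2 they all lay above, as for 20.7%. PDK4, PCK1 and IDH2 fell most, each more than 3.0-fold, and the other 17 falls lay between -0.13 and -0.71 on the log2 scale. The methods call the 3 libraries of a group biological replicates, and bulk RNA cannot tell fewer cells from less RNA per cell.

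Among the kinases that switch the pyruvate dehydrogenase complex off, 3 of 4 fell. PDK4, the isoform known to rise in fasting and with fatty acid oxidation, had 97.9, 105 and 96.6 CPM in the control libraries and 23.5, 25.7 and 24.5 CPM in the PSTK-KO libraries. The groups did not overlap, and the level in the controls was 4.06-fold that in PSTK-KO (log2 fold change -2.02, SE 0.069, adjusted p = 1.91e-21 by edgeR), which ranked PDK4 22nd from the lowest of all genes tested. PDK3 was scarce, with 4.21, 4.37 and 3.69 CPM against 2.03, 2.63 and 3.03 CPM (log2 fold change -0.67, SE 0.22, edgeR adjusted p = 0.020). Its call was lost without control replicate 1 (adjusted p = 0.056), control replicate 2 (0.065) or PSTK-KO replicate 1 (0.11), and by DESeq2 (0.082). PDK1, a target of the hypoxia response, fell by 0.33 on the log2 scale (SE 0.10, edgeR adjusted p = 0.012), from 19.3, 21.6 and 20.9 to 16.8, 14.9 and 17.3 CPM. Its call was lost without PSTK-KO replicate 2 (adjusted p = 0.085) and by limma on log2(FPKM + 1) (0.093). PDK2 did not pass the test, with 21.8, 18.2 and 18.6 CPM in the controls and 18.1, 17.7 and 16.4 CPM in PSTK-KO (log2 fold change -0.17, edgeR adjusted p = 0.23). On the length-scaled FPKM values, PDK4 made up 77.9, 80.4 and 79.4% of the summed kinase level in the controls and 51.8, 54.5 and 53.2% in PSTK-KO, while the sum itself went from 27.6 ± 1.06 to 10.2 ± 0.214 FPKM (SD, n = 3).

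The phosphatases that switch the complex back on moved in opposite directions. PDP1, the calcium-activated isoform, rose from 40.4, 43.7 and 39.1 CPM to 53.1, 55.1 and 50.9 CPM (log2 fold change 0.37, SE 0.070, edgeR adjusted p = 9.18e-05). PDP2, the isoform without calcium activation, fell from 50.6, 49.0 and 45.5 CPM to 29.5, 30.6 and 32.0 CPM (log2 fold change -0.66, SE 0.074, edgeR adjusted p = 1.18e-08). The groups of both genes stood apart. PDPR, the regulatory subunit that restrains PDP1, had a log2 fold change of 0.01 (edgeR adjusted p = 0.93). The ratio of PDP2 to PDP1 in FPKM was 0.790 ± 0.046 in the controls and 0.389 ± 0.028 in PSTK-KO, and that of the summed kinases to both phosphatases 2.13 ± 0.038 and 0.779 ± 0.0089 (SD, n = 3). For each of the 7 sums and ratios of FPKM given here the groups did not overlap, with a two-sided exact permutation p of 0.1 (also 0.1 after adjustment over the 7), the smallest that 3 against 3 libraries can give. These sums and ratios were chosen after the fold changes were seen.

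**Figure D1:**
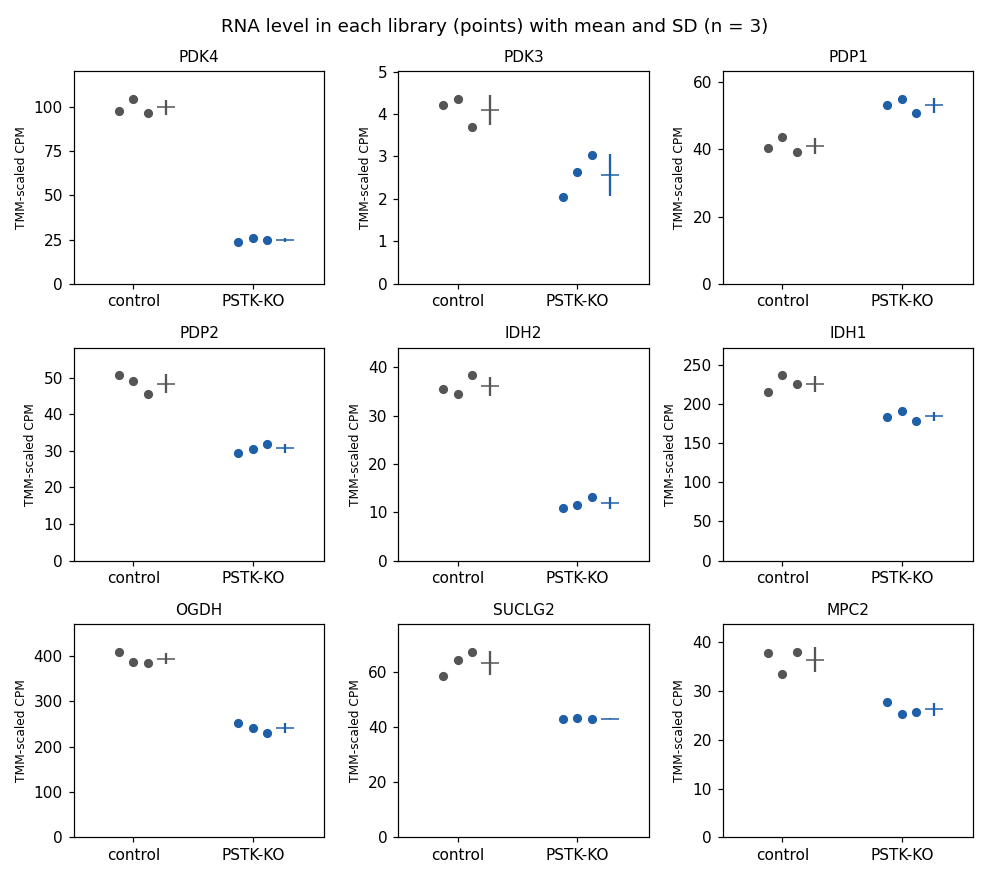
RNA level in TMM-scaled CPM (y axis, from 0) in each control and PSTK-KO library for 9 genes, with the mean and SD of 3 libraries beside the points. In all 9 panels the groups do not overlap, and PDP1 is the one gene of the 9 that is higher in PSTK-KO.

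Of the 5 genes of the complex itself, 3 fell, each by less than the kinases and phosphatase called lower. DLAT, the acetyltransferase core, fell by 0.26 on the log2 scale (SE 0.061, edgeR adjusted p = 0.0011), from 99.8, 104 and 92.1 CPM to 78.3, 83.9 and 85.4 CPM. DLD, the dihydrolipoamide dehydrogenase shared with the 2-oxoglutarate complex, fell by 0.22 (SE 0.054, adjusted p = 0.0017), from 149, 164 and 161 to 131, 137 and 139 CPM. PDHA1, the catalytic subunit that the kinases phosphorylate, was at 394.6, 392.4 and 419.4 CPM in the controls and at 365, 364 and 372 CPM in PSTK-KO. Its log2 fold change of -0.13 (SE 0.047, edgeR adjusted p = 0.030) was not called without control replicate 3 (0.083), or without PSTK-KO replicate 1 (0.11), 2 (0.11) or 3 (0.080), nor without the filter on low counts (0.051). PDHB, its partner, and PDHX, which anchors DLD, were not called (log2 fold change -0.14, adjusted p = 0.097, and 0.04, adjusted p = 0.68). Of the carrier, MPC2 fell from 37.8, 33.5 and 37.9 CPM to 27.8, 25.3 and 25.7 CPM (log2 fold change -0.47, SE 0.081, edgeR adjusted p = 2.18e-05). MPC1, which was scarcer in FPKM (5.58 ± 0.732 in the controls against 14.1 ± 0.950 for MPC2, SD, n = 3), was not called (log2 fold change -0.11, adjusted p = 0.63).

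In the cycle from citrate to succinate, 5 of 10 genes fell and none rose. OGDH, the E1 subunit of the 2-oxoglutarate dehydrogenase complex, had 408, 387 and 385 CPM in the controls and 253, 240 and 230 CPM in PSTK-KO, with no overlap (log2 fold change -0.71, SE 0.049, edgeR adjusted p = 2.28e-13). Its close relative OGDHL was scarce, with 2.83, 1.88 and 2.14 CPM against 3.49, 2.39 and 3.32 CPM, and was not called (log2 fold change 0.43, SE 0.25, edgeR adjusted p = 0.21). DLST, the E2 subunit of the same complex, fell from 187, 184 and 194 CPM to 166, 168 and 171 CPM (log2 fold change -0.17, SE 0.050, edgeR adjusted p = 0.010). Without PSTK-KO replicate 1 its adjusted p was 0.060. The FPKM ratio of OGDH to DLST was 1.82 ± 0.085 in the controls and 1.25 ± 0.076 in PSTK-KO (SD, n = 3).

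Succinyl-CoA ligase has a common subunit, SUCLG1, and a partner that sets whether GTP (SUCLG2) or ATP (SUCLA2) is made. SUCLG2 fell from 58.8, 64.3 and 67.3 CPM to 43.1, 43.2 and 43.0 CPM (log2 fold change -0.56, SE 0.068, edgeR adjusted p = 6.46e-08). SUCLA2 and SUCLG1 were not called, with log2 fold changes of 0.03 (adjusted p = 0.75) and -0.09 (adjusted p = 0.23). SUCLG2 was 3.40 ± 0.120 times SUCLA2 in FPKM in the controls and 2.27 ± 0.065 times in PSTK-KO (SD, n = 3). Of the NAD-dependent isocitrate dehydrogenase, the catalytic subunit IDH3A fell from 45.4, 50.02 and 50.6 CPM to 42.0, 38.2 and 35.6 CPM (log2 fold change -0.34, SE 0.075, edgeR adjusted p = 6.18e-04). The other subunits, IDH3B and IDH3G, were not called (0.08, adjusted p = 0.44, and -0.09, adjusted p = 0.34). Citrate synthase, CS, was at 311, 325 and 334 CPM and fell to 288, 286 and 288 CPM (log2 fold change -0.17, SE 0.048, edgeR adjusted p = 0.0054).

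Both enzymes from fumarate to oxaloacetate were lower. FH, fumarate hydratase, had the highest length-scaled level of the 34 genes in the controls, 116 ± 4.62 FPKM (SD, n = 3), and fell from 239, 250 and 261 CPM to 224, 210 and 217 CPM (log2 fold change -0.21, SE 0.051, edgeR adjusted p = 0.0017). MDH2, the mitochondrial malate dehydrogenase, fell from 272, 276 and 284 CPM to 252, 247 and 241 CPM (-0.17, SE 0.048, adjusted p = 0.0069), which was not called without PSTK-KO replicate 3 (0.067). MDH1, the cytosolic enzyme of the malate-aspartate shuttle, fell from 198, 221 and 217 CPM to 170, 170 and 165 CPM (log2 fold change -0.34, SE 0.053, edgeR adjusted p = 5.11e-06).

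Both NADP-dependent isocitrate dehydrogenases fell, IDH2 by 1.61 and IDH1 by 0.29 on the log2 scale. IDH2, in mitochondria, had 35.5, 34.6 and 38.3 CPM in the controls and 10.9, 11.4 and 13.2 CPM in PSTK-KO, a 3.04-fold higher level in the controls (log2 fold change -1.61, SE 0.098, edgeR adjusted p = 9.18e-15). IDH1, in the cytosol and peroxisomes, had 215, 236 and 225 CPM against 183, 191 and 178 CPM (log2 fold change -0.29, SE 0.052, edgeR adjusted p = 3.54e-05). The FPKM ratio of IDH2 to IDH1 was 0.277, 0.245 and 0.286 in the control libraries and 0.0995, 0.101 and 0.124 in the PSTK-KO libraries. In the annotation of the RNA-seq table, IDH2 lies on chromosome 15 from 90083045 to 90102504, PDK4 on chromosome 7 from 95583499 to 95596491 and OGDH on chromosome 7 from 44606572 to 44709066, positions that overlap the RefSeq GRCh38.p14 genes, as did those of all 34 members.

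Enzymes that feed carbon into the cycle or draw it off did not move as 1 group. PC, pyruvate carboxylase, fell from 72.8, 69.4 and 71.3 CPM to 57.2, 56.7 and 57.6 CPM (log2 fold change -0.32, SE 0.062, edgeR adjusted p = 1.35e-04). PCK1, cytosolic PEPCK and a hepatocyte enzyme of gluconeogenesis, was the scarcest of the 34 in FPKM, with only 29, 30 and 29 counts in the controls and 10, 6 and 11 in PSTK-KO (log2 fold change -1.73, SE 0.38, edgeR adjusted p = 5.57e-04). ME2, the mitochondrial NAD-dependent malic enzyme, rose from 59.6, 62.1 and 63.1 CPM to 69.2, 69.96 and 69.4 CPM (log2 fold change 0.18, SE 0.062, edgeR adjusted p = 0.027). This call was lost without control replicate 1 (0.080) and without PSTK-KO replicate 1 (0.067), 2 (0.079) or 3 (0.078), without the filter on low counts (0.052) and by limma on log2(FPKM + 1) (0.13). ME3, its NADP-dependent relative, and GLUD1, glutamate dehydrogenase, were not called (log2 fold change 0.07, adjusted p = 0.52, and -0.07, adjusted p = 0.34).

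Genes next to these in metabolism, 53 in 6 lists, gave 17 lower and 4 higher calls among the 50 tested, with a median log2 fold change of -0.14. Of 9 genes for aconitases and succinate dehydrogenase, 5 were lower and none higher, led by SDHA, the flavoprotein subunit, with 751, 689 and 728 CPM against 515, 504 and 509 CPM (log2 fold change -0.51, edgeR adjusted p = 8.89e-11), and ACO1, cytosolic aconitase (-0.34, adjusted p = 5.86e-06). These fill the steps of the cycle that the 34 genes leave out. Of 8 genes of lipoate synthesis and transfer, which make the cofactor of DLAT and DLST, FDX1 alone was called lower (-0.25, adjusted p = 0.0074), and NFU1 was next (-0.21, adjusted p = 0.11). Among 6 tested genes of related 2-oxoacid dehydrogenases, PPM1K, the phosphatase of the branched-chain complex, rose from 4.34, 6.67 and 5.31 CPM to 13.9, 17.2 and 16.1 CPM (log2 fold change 1.53, edgeR adjusted p = 3.78e-10), and DHTKD1 was not called (-0.14, adjusted p = 0.069).

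Of 8 tested enzymes of pyruvate, lactate and acetyl-CoA, 4 were lower, 1 was higher and 3 were not called. ACSS2, which makes cytosolic acetyl-CoA from acetate, had 268, 250 and 269 CPM in the controls and 92.1, 94.7 and 90.6 CPM in PSTK-KO (log2 fold change -1.504, edgeR adjusted p = 4.91e-21). ACLY, which makes it from exported citrate, fell by 0.58 on the log2 scale (adjusted p = 4.27e-12). SLC25A1, the carrier that exports citrate, fell by 0.58 as well (adjusted p = 1.51e-10), while SLC25A22, a glutamate carrier, rose by 0.49 (adjusted p = 1.73e-07). Their list of 8 carriers had 4 lower and 1 higher. ME1, cytosolic malic enzyme, fell by 0.49 (adjusted p = 5.88e-08) and GPT2, mitochondrial alanine transaminase, rose by 0.51 (adjusted p = 6.29e-05), in a list of 11 tested genes with 3 lower and 1 higher.

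The screens asked whether guides against these genes became rarer or more frequent, during growth (T1 against T0) or under an inhibitor (against T1). The 34 genes were targeted by 132 guides in Hep3B and 128 in SNU-398, with 2 to 4 guides per gene. Guide levels are given below as scaled counts, which are counts scaled to 10000000 per library. The guides of a gene are numbered by their T0 level in each line on its own, highest first. Many guides were rare: the median was 6.90 scaled counts at T0 and 9.01 at T1 in Hep3B. There 3 of the 132 were at 0 in both T0 libraries and 51 in both T1 libraries. In SNU-398 the medians were 7.37 and 9.92, and 14 of the 128 were at 0 at T0 and 32 at T1. Of all Hep3B guides, 4.34% and 6.43% had no count in the T0 libraries and 38.7% and 39.4% in the T1 libraries. In SNU-398 these shares were 10.7% and 12.6% at T0 and 25.3% and 29.3% at T1. Guides were thus lost during growth over the whole library, and how many guides fell in each comparison was not counted. ME2 had no count at all at T1 in Hep3B, so its inhibitor values there say nothing. NormZ sums the scaled log2 ratios of all guides of a gene over both libraries, with negative values for guides that became rarer, and genes were called at a one-sided p under 0.01.

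During growth, guides against PDK2 became rarer in Hep3B. PDK2 was the 1 gene of the 34 called lower there (NormZ -3.27, rank 16 from the lowest of 18029 genes), where 1.06% of all genes were called lower. Its adjusted p was 0.44. The most abundant PDK2 guide had 622 and 604 scaled counts in the T0 libraries and 364 and 346 in the T1 libraries. The second went from 59.1 and 59.9 to 12.2 and 13.2, the third from 26.7 and 37.3 to 6.52 and 9.92, and the fourth from 6.04 and 9.50 to 0 in both. All 4 guides were thus lower at T1, although the first held 94.7% of the T1 counts. In SNU-398 the NormZ of PDK2 was -0.09, and the difference between the lines was not called.

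In SNU-398, ME3 (NormZ -2.72, adjusted p = 0.53) and PDP2 (NormZ -2.48, adjusted p = 0.69) were called lower during growth, 2 of 34 beside 1.31% of all genes. ME3 guides 1 to 3 had 111 and 111, 92.5 and 94.9, and 42.1 and 47.5 scaled counts at T0, and 77.3 and 88.2, 34.6 and 26.0, and 28.2 and 24.2 at T1. All 3 were lower at T1, while the fourth, at 10.9 and 9.56, then 3.64 and 15.6, was not lower in both. The call of PDP2 was lost without replicate 2 of both T1 and T0 (NormZ -2.20) and without T0 replicate 1 alone (-2.32). It was also lost with a pseudocount of 1 (-2.05) and with guides of a mean T0 count under 30 left out (-2.15). No gene of the 34 was called higher by NormZ in either line, where 1.20% of all genes in Hep3B and 1.01% in SNU-398 were. At an unadjusted NormZ p under 0.05, 1 was higher and 3 lower in Hep3B, and 3 were higher and 3 lower in SNU-398. The share over all genes at this looser threshold was not counted. PDHB, at 2.19, had the highest NormZ of the 34 in SNU-398 over all comparisons. In Hep3B the highest during growth was PDHX, at 1.84, and the highest over all comparisons PDK2 under Erastin, at 1.88. By edgeR on counts summed per gene, 13 of the 34 were lower and 8 higher in Hep3B. In SNU-398, where ME2 did not pass the filter, 7 of 33 were lower and 5 higher. These shares stand beside 33.5% and 29.1% of all genes in Hep3B, and 6.74% and 6.33% in SNU-398. The counts of mates within a group differed by a chi-square per degree of freedom of 2.46 to 3.67, apart from SNU-398 Erastin at 30.8, on counts of which 77.2% to 97.4% of those above 0 were even. No source used here says that mates came from separate cultures, so the p-values of edgeR in the screens measure a spread that may be technical.

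**Figure D2:**
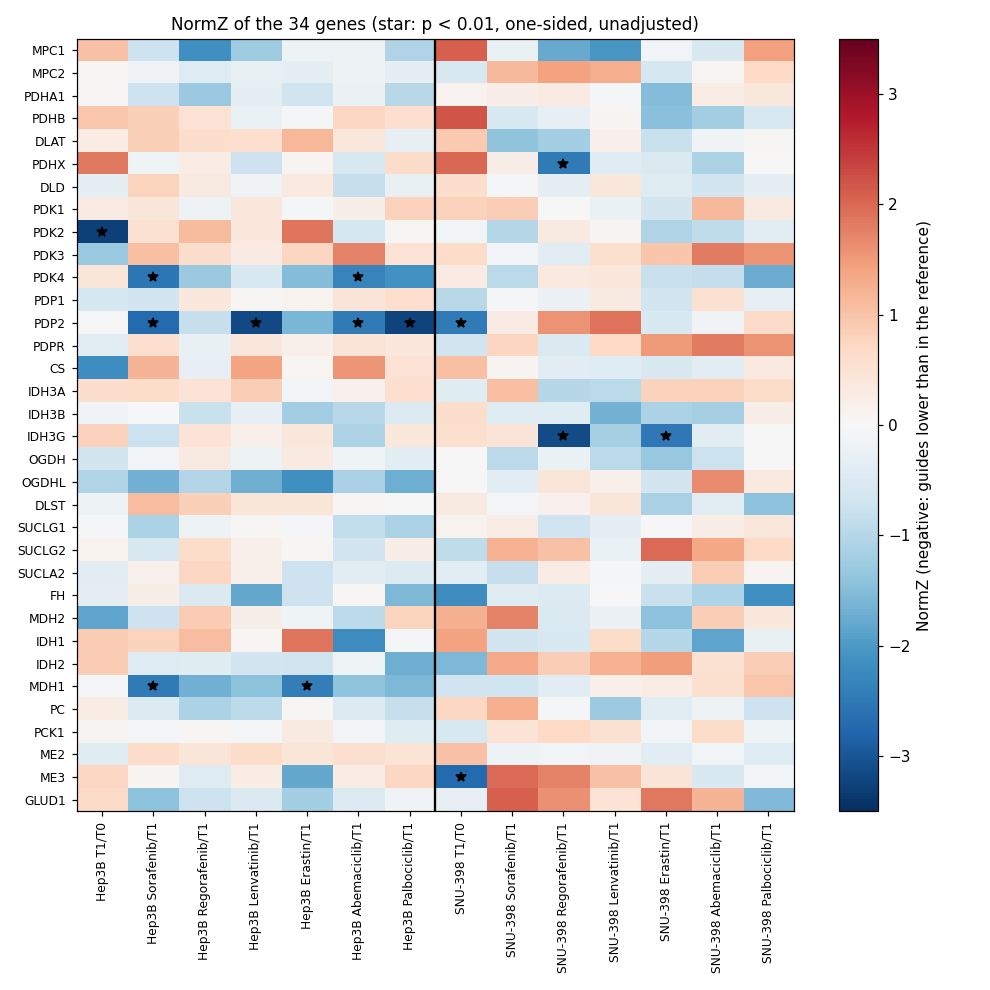
NormZ (colour) of the 34 genes (rows, by role) in each comparison (columns, T1 against T0 and 6 inhibitors against T1 for each line), with a star where the one-sided unadjusted p was under 0.01. The 14 stars all lie on negative values, 5 of them in the row of PDP2, with the lowest value -3.27 for PDK2 in Hep3B T1 against T0.

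Under the inhibitors in Hep3B, guides against PDP2, PDK4 and MDH1 became rarer. These 3 genes gave 8 calls lower out of 204 pairs of gene and inhibitor, or 3.92%, beside 1.76% of the pairs over all genes. None of the 204 was called higher by NormZ, beside 0.827% over all genes. At an unadjusted NormZ p under 0.05, 3 pairs were higher and 19 lower. The share over all genes at this looser threshold was not counted. No call passed an adjusted p under 0.05, and the 6 comparisons share the T1 libraries and are not independent. With guides of a mean T1 count under 30 left out, 1 of the 8 calls remained, PDP2 under Palbociclib.

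PDP2 was called under Sorafenib (NormZ -2.72, adjusted p = 0.38), Lenvatinib (-3.15, 0.20), Abemaciclib (-2.47, 0.50) and Palbociclib (-3.25, 0.19), and had values of -0.81 under Regorafenib and -1.60 under Erastin. Its most abundant guide had 241 and 270 scaled counts in the T1 libraries. Under Sorafenib it had 80.1 and 89.3, under Lenvatinib 66.4 and 69.2, under Palbociclib 80.2 and 74.1, under Abemaciclib 149 and 167, under Erastin 165 and 189 and under Regorafenib 182 and 149. Every inhibitor library was below both T1 libraries for this guide. The second PDP2 guide went from 60.3 and 56.2 at T1 to 6.23 and 10.6 under Sorafenib, 23.4 and 14.8 under Lenvatinib, 9.88 and 7.73 under Abemaciclib and 8.45 and 17.9 under Palbociclib. The third had 38.3 and 47.9 at T1 and 30.6 and 37.5 under Palbociclib, but 59.9 and 68.3 under Regorafenib. The fourth fell from 16.3 and 18.2 to 0 in both libraries under Sorafenib and under Abemaciclib. All 4 guides were therefore lower in both libraries than in either T1 library under Sorafenib, Lenvatinib, Erastin, Abemaciclib and Palbociclib. The median over all Hep3B guides was 18 and 10 unscaled counts in the T1 libraries, and 0 or 2 in each library of these inhibitors. Falls were thus common over the whole library. The share of genes with all guides lower was not counted, so the agreement of the 4 guides cannot be weighed against it. The Abemaciclib call was also lost without replicate 2 of both Abemaciclib and T1 (NormZ -2.23) and without T1 replicate 2 alone (-2.31). A pseudocount of 1 lost it too (-2.27).

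In SNU-398 the PDP2 guides did not move together. They are numbered by their T0 level in SNU-398, so a number need not name the same guide as in Hep3B. The first had 265 and 248 scaled counts at T1, 290 and 328 under Lenvatinib and 278 and 291 under Palbociclib. The fourth, at 12.7 and 12.1 at T1, had 97.1 and 70.2 under Sorafenib. PDP2 had a NormZ of 1.90 under Lenvatinib in SNU-398, and the difference between the lines, -5.04, had the smallest p of the 238 differences tested for the 34 genes (unadjusted p = 3.62e-04, adjusted over all shared genes 0.50). None of the 238 passed an adjusted p under 0.05, and 13 had an unadjusted p under 0.05.

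**Figure D3:**
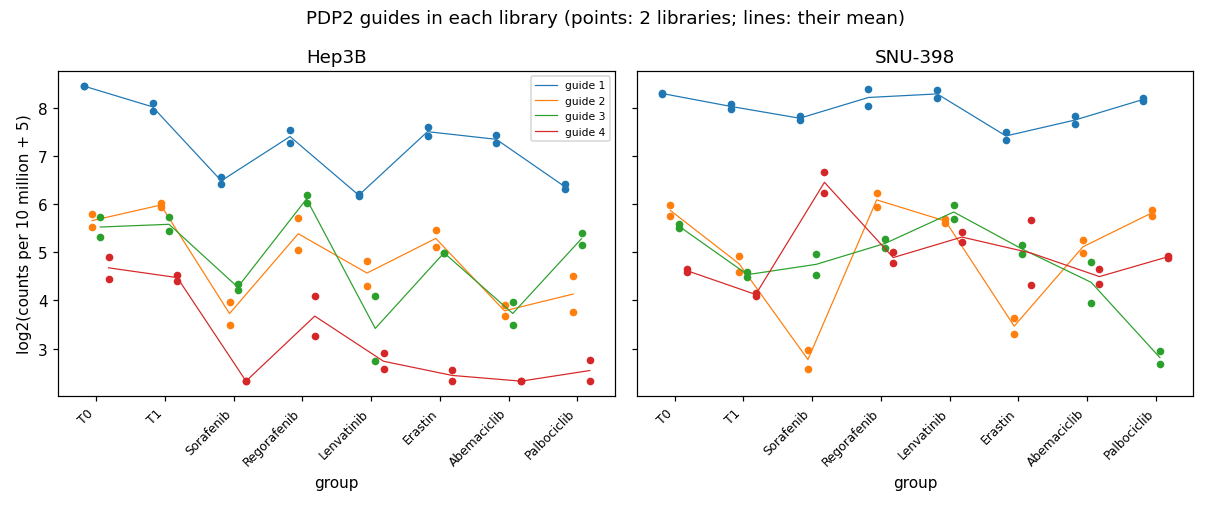
Level of each of the 4 PDP2 guides (y axis, log2 of scaled counts with 5 added) in every library of T0, T1 and the 6 inhibitors, for Hep3B (left) and SNU-398 (right), with points for the 2 libraries and lines through their mean. In Hep3B all 4 guides lie below T1 under Sorafenib, Lenvatinib, Erastin, Abemaciclib and Palbociclib, while in SNU-398 the guides go different ways. Guides are numbered by T0 level within each line, so a colour need not mark the same guide in both panels.

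PDK4, whose RNA fell most in the PSTK-KO libraries, was called lower in Hep3B under Sorafenib (NormZ -2.54, adjusted p = 0.48) and Abemaciclib (-2.34, 0.60). The first PDK4 guide had 73.3 and 77.7 scaled counts at T1, 2.67 and 9.08 under Sorafenib and 5.76 and 8.51 under Abemaciclib. The second, the most abundant at T1 with 192 and 187, had 80.1 and 63.6 under Sorafenib but 204 and 227 under Abemaciclib. Its guides thus fell together under Sorafenib, where the median over all guides fell as well, and parted under Abemaciclib. There the call was also lost without replicate 1 of both Abemaciclib and T1 (NormZ -2.25) and without T1 replicate 2 alone (-2.23). Median-of-ratios scaling lost the call as well (-2.25). In SNU-398 the NormZ of PDK4 lay between -1.73 and 0.40 under the 6 inhibitors.

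MDH1 was called lower in Hep3B under Sorafenib (NormZ -2.48, adjusted p = 0.50) and Erastin (-2.43, 0.55). Its guides 1 to 3 had 34.2 and 29.8, 36.7 and 54.6, and 27.7 and 21.5 scaled counts at T1. Under Sorafenib they had 4.45 and 6.06, 1.78 and 0, and 0 and 0, and under Erastin 11.6 and 18.9, 1.78 and 3.14, and 0 and 0. All 3 were lower than at T1 under both inhibitors, where the median over all guides was lower too. The first guide had 79.5 and 77.4 under Lenvatinib, above T1, and MDH1 was not called there (-1.44). Without replicate 1 of both Erastin and T1 the Erastin call was also lost (NormZ -2.11).

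In SNU-398 the calls under inhibitors fell on IDH3G and PDHX, 3 of 204 pairs or 1.47%, beside 1.6% over all genes, which is no more than the background. None was called higher by NormZ, beside 0.851%. At an unadjusted NormZ p under 0.05, 10 pairs were higher and 9 lower. The share over all genes at this looser threshold was not counted. IDH3G was called lower under Regorafenib (NormZ -3.13, adjusted p = 0.25) and Erastin (-2.50, 0.54). Guide 3 of IDH3G, with 97.3 and 132 scaled counts at T1, had 3.42 and 4.30 under Regorafenib, whereas guide 2, at 36.4 and 58.8, had 38.5 and 50.9. Guide 1 had 42.8 and 39.8 at T1 and 19.7 and 25.8 under Regorafenib, and guide 4 went from 0 in both to 4.28 and 5.74. Guides 1 and 3 were thus lower than at T1, and guides 2 and 4 were not. Under Erastin, the first guide had 11.99 scaled counts in replicate 1 and 110 in replicate 2, the library that stands apart. The call remained without replicate 2 of both Erastin and T1 (NormZ -2.47). It was lost without replicate 1 of both (-1.72) and without T1 replicate 2 alone (-1.77). On counts summed per gene IDH3G was not called by edgeR (log2 fold change -0.61, adjusted p = 0.091), by edgeR with the replicate block (0.053) or by DESeq2 (0.090). PDHX was called under Regorafenib alone (NormZ -2.49, adjusted p = 0.56), with 1215 and 1220 scaled counts of its first guide at T1 and 836 and 859 under Regorafenib. With guides of a mean T1 count under 30 left out its call was lost (NormZ -1.84).

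By edgeR on summed counts, the 34 genes gave 82 lower and 43 higher calls over the 6 inhibitors in Hep3B, where 37.5% of the pairs over all genes were called lower and 32.8% higher. In SNU-398 the 33 genes tested gave 31 lower and 27 higher, where 15.1% were called lower and 13.3% higher. Without SNU-398 Erastin replicate 2, where all 34 were tested, these became 53 and 44, while the shares over all genes became 25.3% and 23.5%. PDP2 in Hep3B had log2 fold changes of -1.60 (SE 0.13) under Sorafenib, -1.81 (SE 0.13) under Lenvatinib and -1.505 (SE 0.13) under Palbociclib by this test. In all 6 comparisons of each line the median NormZ of the 34 genes lay between -0.53 and 0.09, beside 0.03 to 0.08 for all genes. The lowest of these medians, -0.53, was in SNU-398 under Erastin, the comparison that holds the library standing apart.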

How the data were processed

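Guides were counted in 32 screen libraries of Hep3B and SNU-398 (2 for each of 8 groups per line), and RNA in 3 PSTK-KO and 3 control libraries of Hep3B. The screen tables deposited by the authors hold whole-number guide counts, for which the labels name Bowtie2 without a version. They name guides by position and gene without sequence, and their build is not given in the sources used here. For the RNA-seq counts the authors deposited, the submitters' processing notes list HISAT2 2.0.5, then featureCounts 1.5.0-p3, and mm9 as build, but gene identifiers and positions are human. FPKM values, also deposited by the authors, scale these counts by gene length and depth. The table of the authors' DESeq2 comparison (group means, log2 fold changes, p-values) was not used.

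RNA-seq counts were filtered with filterByExpr, scaled by TMM and tested by edgeR 4.0.16 in R 4.3.3 (quasi-likelihood, Benjamini-Hochberg over all genes tested). Levels are TMM-scaled CPM, apart from the sums of cell type markers, which are CPM of the library total. NormZ was computed in Python 3.11.15 by the steps of DrugZ: counts scaled to 10000000, a pseudocount of 5, log2 ratios of libraries of the same number, and a spread from windows of 1000 guides. Differences between lines were divided by the square root of 2 and adjusted over 18025 shared genes. DESeq2 1.42.0 and limma 3.58.1 served as alternatives, and matplotlib 3.10.9 drew the figures. The scripts were tested on simulated data. Counting error limits rare guides, and where the smallest RNA-seq library shows 0, up to 3 counts (0.195 CPM) cannot be told from absence.

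All 34 genes are accounted for. In the RNA-seq every called gene has its value per library. In the screens those called during growth, those called in at least 2 of 12 inhibitor comparisons and the lowest and highest NormZ were named, and the 2 smallest adjusted p of each neighbouring list. PDHX under Regorafenib was added after its values were seen. The genes and lists were chosen with earlier results of these data known.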

Additional observations from a re-analysis of the deposited data

How the results depend on the processing

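Of the 22 genes called in the RNA-seq, none changed direction under any of 11 alternatives, and 223 of 242 values kept their side of the threshold. The 19 that did not belonged to PDHA1, PDK1, PDK3, DLST, MDH2 and ME2. Of the 20 lower calls, 19 were made with DESeq2, 19 without the filter, 19 with limma on log2(FPKM + 1) and 20 at 1 CPM in 3 libraries, and 17 to 19 without any 1 library. The 2 higher calls became 1 without the filter and 1 with limma, and 1 to 2 without any 1 library. With the replicate number as a block the counts were 20 and 2. Libraries of the same number did not deviate together (correlations of 0.026, 0.067 and -0.0027), so the numbers were not taken as pairs.

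In the screens, none of the 14 called NormZ values changed direction, and 131 of 155 values kept their call. Where NormZ left out an inhibitor library, or a T1 library in growth, the reference library of the same number was left out with it. A reference library was left out alone. The ranges given below for leaving out 1 library are to be read in this way for NormZ. In Hep3B during growth, the 1 lower call became 2 (with CS) with guides of at least 30 counts, 13 by edgeR on summed counts, 13 with the replicate block and 12 by DESeq2, and 1 to 2 without any 1 library. The 0 higher calls became 8, 8 and 7 by these 3 fits and stayed at 0 without any 1 library. Under inhibitors, the 8 lower calls became 1 with guides of at least 30 counts, then 82, 80 and 79 by the 3 fits, and 6 to 8 without any 1 library. The 0 higher calls became 43, 42 and 43. In SNU-398 during growth, the 2 lower calls became 1 with guides of at least 30 counts and 7 by each of the 3 fits, and the 0 higher calls became 3 and then 5 by each. Leaving out 1 library gave 1 to 7 and 0 to 8. Under inhibitors, the 3 lower calls became 5, then 31, 31 and 34, and 2 to 53 without any 1 library. The 0 higher calls became 1, then 27, 27 and 29, and 0 to 44. The upper ends of these SNU-398 ranges come from edgeR without Erastin replicate 2. Without the replicate block in NormZ, using the mean of the control libraries, all 8 counts equalled those given (1 and 0 in Hep3B growth, 8 and 0 under inhibitors, 2 and 0, and 3 and 0 in SNU-398). The cause of these changes was not tested. A guide without counts at T1 (51 of 132 in Hep3B and 32 of 128 in SNU-398) cannot show a fall under an inhibitor. With a pseudocount of 1 or median-of-ratios scaling the 8 counts of NormZ calls stayed the same, apart from 7 in place of 8 lower calls under inhibitors in Hep3B with each. An equal count need not mean the same genes. With a pseudocount of 1 the call of PDP2 in SNU-398 growth was lost, although the count stayed at 2.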
